A study of Mus musculus with 24 samples.

Results

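The 10 genes described here move ions, bicarbonate and amino acids across the lung epithelium, or assist the proteins that do. They were Slc26a4, Slc6a20a, Car2, Ahcyl2, Cftr, Slc12a2, Slc4a4, Scnn1a, Scnn1b and Scnn1g, out of 18193 genes that had a probe set of their own on the arrays. Slc26a4, Slc6a20a, Car2 and Ahcyl2 were chosen by measured values: in these same samples their response to HDM differed between the genotypes, so that difference is described below without a test. The other 6 genes were added for their place in the same transport pathways, with earlier results of these data known. They were tested in the model fitted to all probe sets. The 10 genes had 19 probe sets annotated to them alone, 18 on array set A and 1 on array set B. Of these, 16 passed the filter on low signal (mean over the 12 samples, on the log2 scale used for the tests, at or above the 30th percentile of the array set), and each gene had at least 1 probe set that passed.

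Lung RNA was profiled from mice lacking interleukin 13 and given HDM (IL-13 KO HDM), IL-13 KO mice given PBS, wild-type mice given HDM and wild-type mice given PBS. HDM commonly stands for house dust mite, a source of inhaled allergen, and PBS for phosphate-buffered saline. Each of the 4 groups had 3 samples, hybridised to 2 arrays each. The sources used here do not state background strain, age, sex, dose, route or schedule, or whether the 3 samples of a group were separate animals. The p-values therefore reflect only how much these samples differed among themselves, and that spread may be technical.

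Airway surface liquid is set by the balance of absorption and secretion. The epithelial sodium channel ENaC, built of an alpha, a beta and a gamma subunit, lets sodium enter from the lumen, and water follows. Chloride leaves through apical channels such as CFTR after entering the cell with sodium and potassium through the basolateral cotransporter NKCC1, and bicarbonate is moved by exchangers and cotransporters that carbonic anhydrases keep supplied. Interleukin 13, a cytokine of type 2 immunity, is known to shift cultured airway epithelium towards secretion.

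The deposited values were linear intensities, scaled by the authors so that the mean of every array, after trimming 2% from each end, was 150. Median intensity was 69.5 to 77.7 on set A arrays and 83.5 to 93.7 on set B arrays. Il13 itself, the deleted gene, lay under the filter, with a signal of 8.71 to 15.5 in KO HDM, 3.30 to 9.45 in KO PBS, 15.5 to 29.9 in wild-type HDM and 4.65 to 12.1 in wild-type PBS samples. Since the position of its probes relative to the deletion is unknown, these values say nothing about the genotype labels. The surfactant gene Sftpc, a marker of lung, had a mean signal of 5459, 5206, 5627 and 5704 in KO HDM, KO PBS, wild-type HDM and wild-type PBS samples, and was not called in either genotype. The skeletal muscle transcript Tnnc2, which lay under the filter, had a signal of 198 in wild-type HDM replicate 1. It was 988 in wild-type HDM replicate 2, 413 in wild-type PBS replicate 2, and under 10 in all other samples. Acta1 was 699, 2105 and 1233 in these 3 samples and at most 108 elsewhere. These 3 samples are called rich in muscle transcripts below. Other muscle markers set them apart little or not at all. Pvalb was 67.8, 111 and 64.5 in them and at most 64.0 elsewhere. Ckm was highest in wild-type PBS replicate 3 (437), and Myh4 was 98.9 in KO PBS replicate 2. On set A the actin signal at the 5' end over that at the 3' end, a measure of RNA integrity, was 0.464 to 0.656 in KO HDM, 0.748 to 0.854 in KO PBS, 0.695 to 0.832 in wild-type HDM and 0.409 to 0.898 in wild-type PBS samples. On that set it was therefore lower in KO HDM than in both KO PBS and wild-type HDM samples without overlap. On set B the actin ratio was 0.428 to 0.612 in KO HDM, 0.610 to 0.897 in KO PBS, 0.643 to 0.851 in wild-type HDM and 0.349 to 0.939 in wild-type PBS samples. There KO HDM overlapped KO PBS slightly and lay below wild-type HDM. The same ratio for Gapdh, on set A, overlapped between all groups. It was 1.04 to 1.16 in KO HDM, 1.05 to 1.20 in KO PBS, 1.09 to 1.16 in wild-type HDM and 1.04 to 1.24 in wild-type PBS samples. The part of RNA integrity in any difference between these groups, the HDM effect in KO included, was not tested.

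Promoters were available for 7 of the 10 genes in the RefSeq table (assembly GRCm38.p6; 250 bases before to 50 bases after the start), 10 promoters in all because Ahcyl2 and Slc4a4 have several starts. Those of Slc26a4 and Slc6a20a, whose response to HDM differed most between genotypes, and of Scnn1b and Scnn1g, which fell in both, are printed 5′ to 3′ on the strand of the gene. Capitals mark a TATAAA match, which among these promoters was found in Slc26a4 alone.
Slc26a4: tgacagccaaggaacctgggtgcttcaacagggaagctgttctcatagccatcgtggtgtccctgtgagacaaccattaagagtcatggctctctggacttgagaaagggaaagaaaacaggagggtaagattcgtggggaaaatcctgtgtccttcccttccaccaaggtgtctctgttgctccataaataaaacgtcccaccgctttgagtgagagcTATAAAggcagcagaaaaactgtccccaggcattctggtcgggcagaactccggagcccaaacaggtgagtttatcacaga
Slc6a20a: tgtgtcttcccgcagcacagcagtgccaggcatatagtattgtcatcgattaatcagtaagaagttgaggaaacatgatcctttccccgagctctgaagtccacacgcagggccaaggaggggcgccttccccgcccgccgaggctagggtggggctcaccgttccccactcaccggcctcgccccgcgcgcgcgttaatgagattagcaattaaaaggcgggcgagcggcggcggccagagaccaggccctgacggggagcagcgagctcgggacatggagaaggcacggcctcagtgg
Scnn1b: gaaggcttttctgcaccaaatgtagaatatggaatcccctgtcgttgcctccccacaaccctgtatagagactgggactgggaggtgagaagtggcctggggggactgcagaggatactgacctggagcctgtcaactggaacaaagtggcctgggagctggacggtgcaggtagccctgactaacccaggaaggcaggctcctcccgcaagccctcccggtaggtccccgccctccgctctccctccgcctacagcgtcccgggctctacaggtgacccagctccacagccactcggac
Scnn1g: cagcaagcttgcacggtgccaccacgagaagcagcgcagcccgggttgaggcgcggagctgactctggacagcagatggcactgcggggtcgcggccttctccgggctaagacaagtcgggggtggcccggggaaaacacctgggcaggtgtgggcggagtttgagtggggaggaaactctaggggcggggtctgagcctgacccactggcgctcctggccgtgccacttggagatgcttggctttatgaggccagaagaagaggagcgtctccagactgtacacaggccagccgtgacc
The Slc26a4 promoter lies at chr12:31559935-31560234 on the minus strand and that of Slc6a20a at chr9:123678783-123679082 on the minus strand. The Scnn1b promoter lies at chr7:121864788-121865087 and that of Scnn1g at chr7:121734229-121734528, both on the plus strand. Scnn1g and Scnn1b are neighbours, with 0 protein-coding genes between them. The GC content was 62.3% in Slc6a20a, 61.7% in Scnn1b and 64.7% in Scnn1g, above the median of 52.7% over all promoters, whereas Slc26a4 lay below it. Slc26a4 held 6 CpG dinucleotides and Slc6a20a 25, while Scnn1b held 10 and Scnn1g 18. Both strands of the 10 promoters were searched for 3 motifs. TTCNNNNGAA, the spacing preferred by STAT6, the transcription factor activated by interleukin 13, matched none of them, and it is present in 6.95% of 32851 promoters. TTCNNNGAA, the spacing of other STAT factors, matched 1 Ahcyl2 promoter (8.3% of all promoters hold it). TATAAA matched Slc26a4, with its first base at position -31 from the start site, and 1 other Ahcyl2 promoter, against 13.6% of all promoters. A match is not evidence of binding, and the lack of one says only that these letters are not in this window.

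Slc26a4 encodes pendrin, an apical exchanger that brings chloride in and sends bicarbonate out. In KO lung its signal was 241, 187 and 227 after HDM, against 46.8, 77.3 and 37.6 after PBS. In wild-type lung it was 1699, 1711 and 2034 after HDM, against 66.8, 43.1 and 101 after PBS. Every HDM sample lay above every PBS sample in both genotypes, and every KO HDM sample lay far below every wild-type HDM sample, while the PBS groups of the 2 genotypes overlapped. Mean signal was 4.05 times as high after HDM as after PBS in KO and 25.9 times in wild type, so the gain in KO was 9.43% of the gain in wild type. Effects are given on the log2(signal + pseudocount) scale, where the pseudocount was 7 (set A) or 11 (set B) and makes folds of dim genes too small. The HDM effect was 1.93 ± 0.27 in KO and 4.62 ± 0.27 in wild type, a difference of -2.69 ± 0.39. After a log2 effect, ± gives the SE of the model, whose spread was estimated over all 12 samples, with 3 in each group. In whole lung, fewer cells of a type and less RNA per cell cannot be told apart.

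Slc6a20a encodes a sodium- and chloride-coupled transporter of proline and related imino acids. Its signal was 39.1, 39.2 and 43.2 after HDM in KO, against 12.5, 10.6 and 11.4 after PBS. The wild-type values were 197, 147 and 152 after HDM, against 11.02, 5.47 and 10.3 after PBS. The HDM samples again stood above the PBS samples in both genotypes with a wide gap between the HDM groups, but the PBS values were so low that the fold change depended on the pseudocount. The HDM effect was 1.36 ± 0.21 in KO and 3.44 ± 0.21 in wild type, and 1.73 and 4.11 with a pseudocount of 1 or 0.74 and 2.26 with a pseudocount of 32. In mean signal the gain in KO was 18.5% of that in wild type. Its paralog Slc6a20b was on the arrays and lay under the filter, and cross-hybridisation between these related genes was not tested.

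Car2 encodes cytosolic carbonic anhydrase II, which interconverts carbon dioxide and bicarbonate. Its signal was 530, 742 and 637 after HDM in KO, against 774, 700 and 688 after PBS. Wild-type lung had 1268, 1387 and 1459 after HDM, against 693, 612 and 514 after PBS. The gain after HDM was seen in all 3 wild-type samples, while in KO the HDM and PBS samples overlapped. The HDM effect was -0.19 ± 0.14 in KO and 1.18 ± 0.14 in wild type, a difference of -1.37 ± 0.20. Red cells carry much Car2 protein. The summed signal of 3 erythroid markers was lower after HDM: 480 to 729 in KO HDM and 1520 to 1927 in KO PBS samples, and 602 to 660 in wild-type HDM and 1147 to 1599 in wild-type PBS samples. Most of that sum was Alas2, which was lower after HDM in both genotypes, while Slc4a1 was lower in KO and not called in wild type. The part of red cells in the Car2 values was not tested.

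Ahcyl2 encodes a relative of S-adenosylhomocysteine hydrolase, known as long-IRBIT, that binds IP3 receptors and modulates bicarbonate cotransport. On its brightest probe set the signal was 507, 447 and 437 after HDM in KO, against 528, 479 and 432 after PBS. The wild-type signal was 1016, 887 and 887 after HDM, against 377, 455 and 411 after PBS. The pattern was that of Car2: higher in every wild-type HDM sample, with mean signal 2.24 times as high as after PBS, and overlapping in KO, where mean signal after HDM was 96.7% of that after PBS. The HDM effect was -0.05 ± 0.12 in KO and 1.15 ± 0.12 in wild type, a difference of -1.20 ± 0.17. The other probe sets of Ahcyl2 gave smaller differences, -0.85 ± 0.31 on one that also rose in all wild-type HDM samples without overlap and -0.55 ± 0.55 on a dim one whose groups overlapped. These 4 genes had been chosen for an adjusted p under 0.05 in the difference of HDM effects, which 0.0857% of probe sets reached. Ahcyl2 had the smallest such difference among them. The nearest to that threshold outside it was Scnn1a among the other 6 members (0.37 ± 0.14) and the chloride channel Ano1 in the wider list described below (-1.30 ± 0.28, and -0.23 on its other probe set), both well outside it (limma, adjusted p = 0.781 and 0.276).

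**Figure D1:**
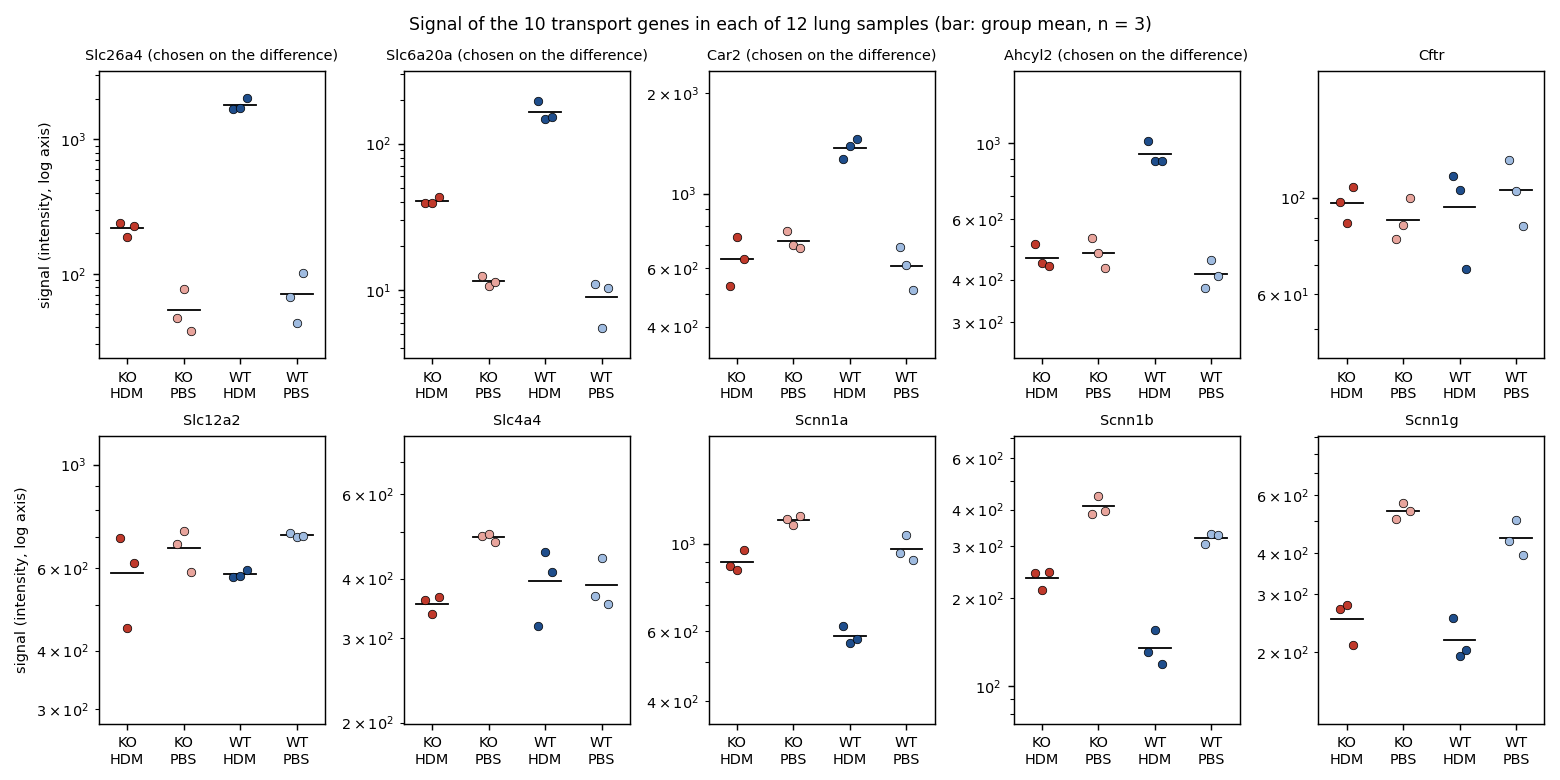
Signal (linear intensity, log axis) of each of the 10 genes in the 12 lung samples, 1 panel per gene, with KO HDM, KO PBS, wild-type HDM and wild-type PBS from left to right, a point per sample and a bar at the group mean (n = 3). Slc26a4 and Slc6a20a stood above PBS in both genotypes after HDM, Car2 and Ahcyl2 in wild type, and Scnn1a, Scnn1b and Scnn1g stood below PBS in both.

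The genes whose signal most resembled each of these 4 over the 12 samples were ranked by Pearson's r, given as a description, since all share the same 4 groups and the same arrays. Slc26a4 was most like Fcgbp, a mucus-associated protein of goblet cells (r = 0.989), the growth factor Igf1 (0.966) and the neutrophil chemokine Cxcl3 (0.964). Fcgbp had a mean signal of 220 in KO HDM and 108 in KO PBS samples, and 859 in wild-type HDM and 152 in wild-type PBS samples. Slc6a20a was most like Pigr, the antibody transporter of epithelium (0.976), Igf1 (0.972) and the ubiquitin ligase Rnf128 (0.972). Car2 was most like the peroxisomal transporter Abcd2 (0.951), the eosinophil attractant Ccl11 (0.930) and pyruvate carboxylase Pcx (0.922). Ahcyl2 was most like dopamine beta-hydroxylase Dbh (0.954), the collagen gene Col6a2 (0.946) and a second probe set of Pigr (0.942). The genes most like Slc26a4 and Slc6a20a had higher mean signals after HDM in KO as well, and so did those most like Ahcyl2. Of those most like Car2, Ccl11 had a mean signal of 19.1 in KO HDM, 22.04 in KO PBS, 402 in wild-type HDM and 22.9 in wild-type PBS samples.

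The subunits of the sodium channel moved the other way. All 3 fell after HDM in both genotypes, and they were the only ones among the 6 tested members to be called by limma (adjusted p under 0.05 over 31496 probe sets). In KO, 3 of 6 were lower and 0 higher, where 8.56% of all probe sets were called and 5.3% of 14477 genes were lower. In wild type, 3 of 6 were lower and 0 higher, where 7.7% of probe sets were called and 5.14% of genes were lower. The median HDM effect over the 6 genes was -0.40 in KO and -0.50 in wild type, against 0.01 and -0.00 over all genes.

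Scnn1a, the alpha subunit without which the channel carries little current, had a signal of 877, 859 and 963 after HDM in KO, against 1154, 1117 and 1172 after PBS. In wild type it had 617, 560 and 574 after HDM, against 945, 1053 and 907 after PBS. The groups did not overlap in either genotype, and the KO HDM samples kept a higher signal than the wild-type HDM samples. Mean signal after HDM was 78.4% of that after PBS in KO and 60.3% in wild type, an HDM effect of -0.35 ± 0.10 in KO (limma, adjusted p = 0.0422) and -0.72 ± 0.10 in wild type (adjusted p = 0.000683). The KO call was lost when any 1 of the 6 KO samples was left out (adjusted p from 0.0618 to 0.134), while the wild-type call held in every alternative tried.

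Scnn1b, the beta subunit, had a signal of 243, 212 and 245 after HDM in KO, against 388, 446 and 396 after PBS. Wild-type lung had 131, 156 and 119 after HDM, against 305, 331 and 327 after PBS. Again no HDM sample reached a PBS sample, and the wild-type HDM samples were the lowest of all 12. Mean signal after HDM was 56.9% of that after PBS in KO and 42.1% in wild type, with HDM effects of -0.79 ± 0.13 in KO (limma, adjusted p = 0.00268) and -1.21 ± 0.13 in wild type (adjusted p = 0.000126).

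Scnn1g, the gamma subunit, had a signal of 271, 277 and 210 after HDM in KO, against 508, 566 and 535 after PBS. In wild type it had 254, 194 and 203 after HDM, against 436, 505 and 395 after PBS. Here the HDM samples of the 2 genotypes overlapped, and mean signal was close in both, at 47.1% of that after PBS in KO and 48.7% in wild type. The HDM effects were -1.07 ± 0.15 in KO (limma, adjusted p = 0.000943) and -1.02 ± 0.15 in wild type (adjusted p = 0.00119).

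After HDM, KO lung had more signal than wild-type lung for 2 of the 6 tested members, Scnn1a (0.62 ± 0.10, limma adjusted p = 0.0129) and Scnn1b (0.76 ± 0.13, adjusted p = 0.0210), where 0.457% of probe sets were called in either direction. For Scnn1g the difference was 0.21 (95% interval -0.11 to 0.53, adjusted p = 0.771). The Scnn1a call was lost without replicate 1 or 3 of KO HDM or replicate 2 of wild-type HDM (adjusted p = 0.0552, 0.0799 and 0.0739), and the Scnn1b call when replicate 1 or 3 of KO HDM (0.106 and 0.116) or replicate 1 or 3 of wild-type HDM (0.0756 and 0.0868) was dropped. When the 3 samples rich in skeletal muscle transcripts were dropped, with 1 wild-type HDM sample remaining and assumed to vary like the others, neither was called, although the differences were as large (0.64 and 0.93). After PBS, KO minus wild type was 0.25 ± 0.10 for Scnn1a, 0.34 ± 0.13 for Scnn1b and 0.27 ± 0.15 for Scnn1g. It was 0.33 ± 0.14 for Slc4a4, -0.20 ± 0.21 for Cftr and -0.10 ± 0.14 for Slc12a2. None of the 6 members was called in this comparison by limma, against 0.0381% of probe sets. At an unadjusted p under 0.05 there were 3 of the 6, against 6.8% of probe sets. The HDM effect itself was less negative in KO by 0.37 (95% interval 0.08 to 0.67) for Scnn1a and by 0.42 (0.02 to 0.82) for Scnn1b, and differed by -0.06 (-0.51 to 0.40) for Scnn1g. With limma, 0 of 6 members were called for this difference, and 3 had an unadjusted p under 0.05, as did 5.71% of all probe sets: Scnn1a, Scnn1b and Slc4a4 (adjusted p = 0.781, 0.869 and 0.853).

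**Figure D2:**
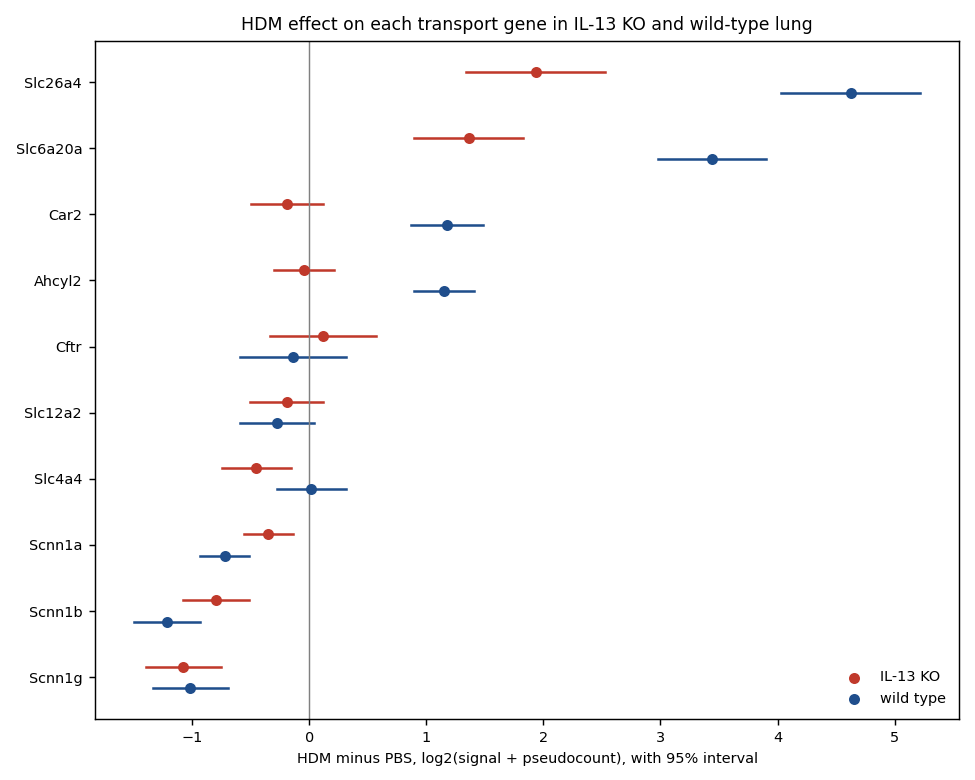
HDM effect on each of the 10 genes (HDM minus PBS, log2 of signal plus pseudocount) in IL-13 KO and wild-type lung, with points at the estimate and lines for the 95% interval. Slc26a4 lies at 1.93 in KO and 4.62 in wild type, Cftr near 0 in both, and Scnn1g at -1.07 and -1.02.

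Epithelial and alveolar markers also moved with HDM. Of 6 epithelial markers, Krt19 was lower after HDM in both genotypes and Cldn7 in KO, and none was higher. Their summed signal was 3141 to 3956 in KO HDM and 4027 to 4831 in KO PBS samples, and 2791 to 3815 in wild-type HDM and 3680 to 4585 in wild-type PBS samples. Of 5 alveolar type 1 markers, 1 was lower in KO (Akap5) and 2 in wild type (Akap5 and Hopx). Their summed signal was 19356 to 21596 in KO HDM and 25341 to 29035 in KO PBS samples, and 13286 to 18177 in wild-type HDM and 20548 to 25711 in wild-type PBS samples. The alveolar type 1 sum thus ordered the 4 group means as Scnn1a did, lowest in wild-type HDM and highest in KO PBS samples. The epithelial sum and the ciliated sum given below had the same order, so it was not particular to alveolar type 1 markers. Most of the alveolar type 1 sum was Ager, which was not called in any comparison. Pdpn was not lower after HDM (0.03 in KO and 0.17 in wild type, neither called). The part of the cells behind any of these sums in the sodium channel result was not tested. Ciliated cell markers summed to 400 to 461 in KO HDM and 505 to 641 in KO PBS samples, and to 293 to 391 in wild-type HDM and 428 to 629 in wild-type PBS samples, with Rsph1 lower in wild type and no other call. The summed signal of 4 alveolar type 2 markers overlapped between HDM and PBS in both genotypes, while Sftpb was lower after HDM in wild type, and no other was called.

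Goblet cell markers were also higher after HDM. All 3 markers that passed the filter, Muc5ac, Muc5b and Tff2, were higher after HDM in both genotypes, and 2 of them were lower in KO than in wild-type lung after HDM. The other 2 lay under the filter: Agr2 had a mean signal of 17.1 in KO HDM and 11.7 in KO PBS samples, and 162 in wild-type HDM and 14.9 in wild-type PBS samples, and Spdef 12.9 and 20.0 in KO HDM and KO PBS, and 65.2 and 22.03 in wild-type HDM and wild-type PBS samples. Both thus stood out in wild-type HDM samples, with low values in KO. The filter used the mean over all 12 samples, so it favoured markers high in both HDM groups over those high in a single group. Muc5ac had a mean signal of 14.6 in KO PBS and 17.03 in wild-type PBS samples, below the cut of either array set. It therefore passed through its HDM samples, whereas the means of Muc5b and Tff2 lay above the cut in all 4 groups. The rise of Muc5ac, and with it the count of 3 of 3 passing markers higher, was thus not independent of the filter. The summed signal of the 5 on the arrays was 677 to 783 in KO HDM and 252 to 297 in KO PBS samples, and 1308 to 1405 in wild-type HDM and 332 to 417 in wild-type PBS samples. Leukocyte markers rose after HDM in both genotypes, with 3 of 5 higher in each, and summed to 2343 to 2354 in KO HDM, 1139 to 1364 in KO PBS, 1791 to 2545 in wild-type HDM and 867 to 1119 in wild-type PBS samples. Endothelial markers fell in both, 3 of 4 in KO and 4 of 4 in wild type. Smooth muscle markers, by contrast, followed Car2 and Ahcyl2: their sum was 1251 to 1496 in KO HDM and 1471 to 1925 in KO PBS samples, and 3467 to 3843 in wild-type HDM and 1453 to 1837 in wild-type PBS samples, with 2 of 4 lower in KO and 3 of 4 higher in wild type. The part of these markers in the results was not tested.

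**Figure D3:**
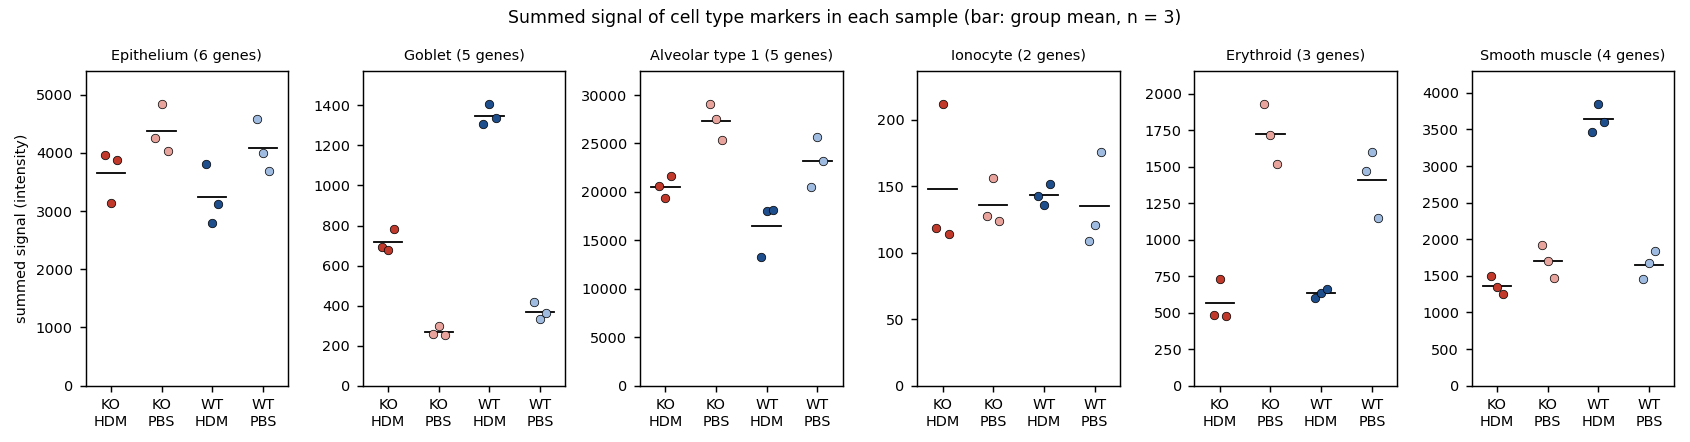
Summed signal (linear intensity) of 6 cell type marker lists in each of the 12 samples, with KO HDM, KO PBS, wild-type HDM and wild-type PBS from left to right and a bar at the group mean (n = 3). Goblet and smooth muscle sums are highest in wild-type HDM samples, the erythroid sum is lower after HDM in both genotypes, and the ionocyte sum overlaps between all groups.

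Cftr encodes the cyclic AMP-gated apical chloride and bicarbonate channel. Its signal was 97.9, 87.4 and 106 after HDM in KO, against 80.2, 86.5 and 99.5 after PBS, and 112, 104 and 68.5 after HDM in wild type, against 122, 104 and 86.1 after PBS. All 4 groups overlapped. The HDM effect was 0.12 (95% interval -0.33 to 0.57, limma adjusted p = 0.791) in KO and -0.14 (-0.59 to 0.32, adjusted p = 0.79) in wild type, so changes within these bounds were not resolved with 3 samples a group. A second Cftr probe set lay under the filter, with signals of 0.31 to 6.76. The ionocyte markers Foxi1 and Ascl3, Foxi1 being a transcription factor of the rare airway cell that carries much Cftr, were not called in either genotype, and their sum overlapped between all groups (114 to 212, 124 to 156, 136 to 152 and 109 to 176 in KO HDM, KO PBS, wild-type HDM and wild-type PBS samples).

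Slc12a2 encodes NKCC1, the basolateral cotransporter that loads cells with chloride. On its brightest probe set it had a signal of 695, 446 and 614 after HDM in KO, against 677, 720 and 588 after PBS. Wild-type samples had 575, 577 and 595 after HDM, against 714, 700 and 703 after PBS. The wild-type HDM samples lay below the wild-type PBS samples on all 3 probe sets without overlap, and in KO the groups overlapped on all 3. These probe sets were read from the same set A arrays, so they are not separate evidence. The share of all probe sets separated in this way is not given here. No probe set was called: the HDM effects were -0.19, -0.20 and -0.24 in KO (limma, adjusted p = 0.473, 0.55 and 0.535) and -0.27, -0.30 and -0.54 in wild type (0.325, 0.384 and 0.141).

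Slc4a4 encodes NBCe1, the sodium-bicarbonate cotransporter that supplies bicarbonate from the basolateral side and is a partner of the Ahcyl2 protein. Its brightest probe set, the one on set B, had a signal of 360, 338 and 366 after HDM in KO, against 491, 497 and 477 after PBS. In wild type it had 318, 455 and 413 after HDM, against 367, 443 and 354 after PBS. In KO the HDM samples lay below the PBS samples without overlap, and in wild type the groups overlapped. The HDM effect was -0.45 ± 0.14 in KO (limma, adjusted p = 0.0630) and 0.02 ± 0.14 in wild type (adjusted p = 0.967), neither called. The KO effect was called without wild-type HDM replicate 1 (0.0317) or without the 3 samples rich in muscle transcripts (0.0293). The other probe sets did not share that value: the 2 that passed the filter had 0.08 and 0.07 in KO and 0.25 and -0.01 in wild type, with every pair of groups overlapping, and the remaining 2 lay under the filter.

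**Figure D4:**
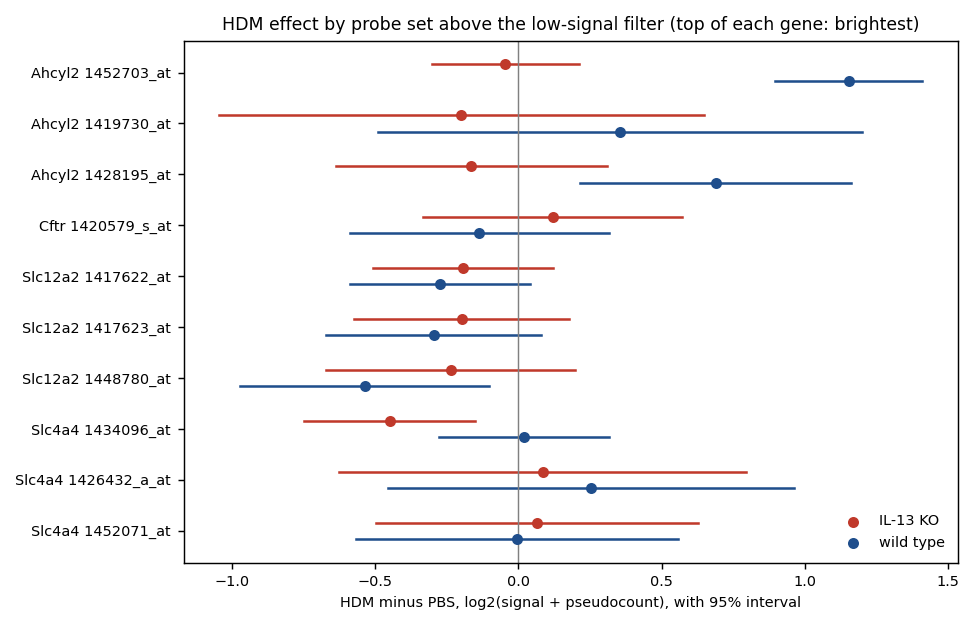
HDM effect (HDM minus PBS, log2 of signal plus pseudocount, with 95% interval) in IL-13 KO and wild-type lung for each probe set above the filter of Ahcyl2, Cftr, Slc12a2 and Slc4a4, the brightest of each gene on top. Probe sets of Slc12a2 lie close together, whereas the brightest probe set of Slc4a4 lies at -0.45 in KO and the other 2 near 0.

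A wider list of 62 transport genes, chosen with earlier results of these data known, set these members in context. Of the 62, 57 were on the arrays and 48 passed the filter. After HDM 4 of the 48 were higher and 4 lower in KO (limma; 5.65% of all genes were higher and 5.3% lower), and 7 were higher and 2 lower in wild type (5.35% and 5.14%). The median HDM effect of the list was -0.11 in KO and 0.06 in wild type. No test of the list as a whole was made.

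Clca1, a secreted protein that regulates mucus and calcium-activated chloride current, rose by 5.77 ± 0.91 in KO and 6.95 ± 0.91 in wild type (limma, adjusted p = 0.00211 and 0.000575). Its mean signal was 1306 ± 213 in KO HDM and 33.1 ± 47.2 in KO PBS samples, and 4403 ± 579 in wild-type HDM and 57.9 ± 78.9 in wild-type PBS samples (SD, n = 3 each). With signals this low after PBS the size of the effect was loosely set: without KO PBS replicate 3 or 2 it was 4.98 or 6.77 in KO, and without wild-type PBS replicate 2 or 3 it was 6.004 or 8.02 in wild type. A pseudocount of 32 or 1 gave 4.58 or 6.68 in KO and 5.98 or 7.56 in wild type. The calcium-activated potassium channel Kcnn4, which sustains chloride secretion by holding the membrane potential, rose by 1.45 ± 0.23 in KO and 1.15 ± 0.23 in wild type. Slc7a2, a carrier of arginine and other cationic amino acids, rose by 0.85 ± 0.13 in KO and 1.26 ± 0.13 in wild type. These 3 list genes were called higher in both genotypes, Clca1 and Slc7a2 under every alternative tried, and Kcnn4 in wild type with 1 exception, the setting without the 3 muscle-rich samples (limma, adjusted p = 0.112).

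Slc5a1, the sodium-glucose cotransporter SGLT1, had a mean signal of 48.6 ± 10.3 in KO HDM and 30.6 ± 6.15 in KO PBS samples, and 179 ± 19.7 in wild-type HDM and 49.1 ± 19.3 in wild-type PBS samples. It rose in wild type (1.78 ± 0.25, limma adjusted p = 0.00106) and was not called in KO (0.56 ± 0.25, adjusted p = 0.214). Kcnj15, an inwardly rectifying potassium channel, had means of 675 ± 71.5 in KO HDM and 871 ± 211 in KO PBS samples, and 1765 ± 325 in wild-type HDM and 1008 ± 362 in wild-type PBS samples. These were the 2 of 48 list genes called lower in KO than in wild-type lung after HDM (-1.75 ± 0.25, limma adjusted p = 0.00838, and -1.36 ± 0.23, adjusted p = 0.02), where 0.484% of all genes were called lower. The remaining genes higher in wild type, named after their values were seen, were Ano1, the calcium-activated chloride channel (0.77 ± 0.20), Kcnj15 (0.84 ± 0.23) and the anion exchanger Slc4a2 (0.44 ± 0.12). Each of these last 3 calls was lost in several settings, without wild-type HDM replicate 3 for example (limma, adjusted p = 0.141, 0.166 and 0.156), and another Ano1 probe set had -0.13 in wild type. The Slc5a1 difference between genotypes after HDM was not called without KO HDM replicate 3 (0.0557) or the 3 muscle-rich samples (0.137), nor that of Kcnj15 without any KO HDM sample or replicate 2 or 3 of wild-type HDM (0.0644 to 0.102). For the difference of HDM effects 0 of 48 genes were called by limma and 7 had an unadjusted p under 0.05 (5.71% of all probe sets), and for KO against wild type after PBS 0 were called and 3 had an unadjusted p under 0.05 (6.8% of all probe sets). For KO against wild type after HDM, 14 of the 48 had an unadjusted p under 0.05 with limma (8.5% of all probe sets).

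Of the 4 water channels tested, Aqp5 and Aqp1 fell after HDM in both genotypes, and Aqp3 and Aqp4 were not called in either. Aqp5, the apical water channel of alveolar type 1 cells and airway glands, fell by 1.08 on the log2 scale in KO and by 1.22 in wild type (limma, adjusted p = 0.000153 and 5.4e-05). Its mean signal was 468 ± 47.8 in KO HDM and 991 ± 50.3 in KO PBS samples, and 336 ± 24.4 in wild-type HDM and 790 ± 79.8 in wild-type PBS samples. Aqp1, the water channel of endothelium and red cells, fell by 0.44 in KO and by 0.49 in wild type, a call lost in KO without either of replicates 1 and 2 of KO HDM or of KO PBS (limma, adjusted p = 0.0516 to 0.0656). Among 12 regulators of ENaC and NKCC1, such as the kinase Sgk1, the ubiquitin ligase Nedd4l and the channel-activating protease Prss8, 1 was lower in KO and 0 were called in wild type. At an unadjusted p under 0.05 there were 7 in KO and 4 in wild type, where 22.6% and 20% of all probe sets reached it, and the median effect of the 12 was -0.33 in KO and -0.16 in wild type. The 1 was the protease Tmprss2 (-0.59 ± 0.16, limma adjusted p = 0.0431), and it was not called in 13 alternatives (0.0509 to 0.14). The other list genes called in KO were the membrane-bound carbonic anhydrase Car4 (-0.60 ± 0.13) and the FXYD protein Fxyd5 (0.42 ± 0.10), and neither was called in wild type. Car4 was not called without KO PBS replicate 3 (0.0544), and Fxyd5 without any KO PBS sample or replicate 2 or 3 of KO HDM (0.0569 to 0.0877).

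**Figure D5:**
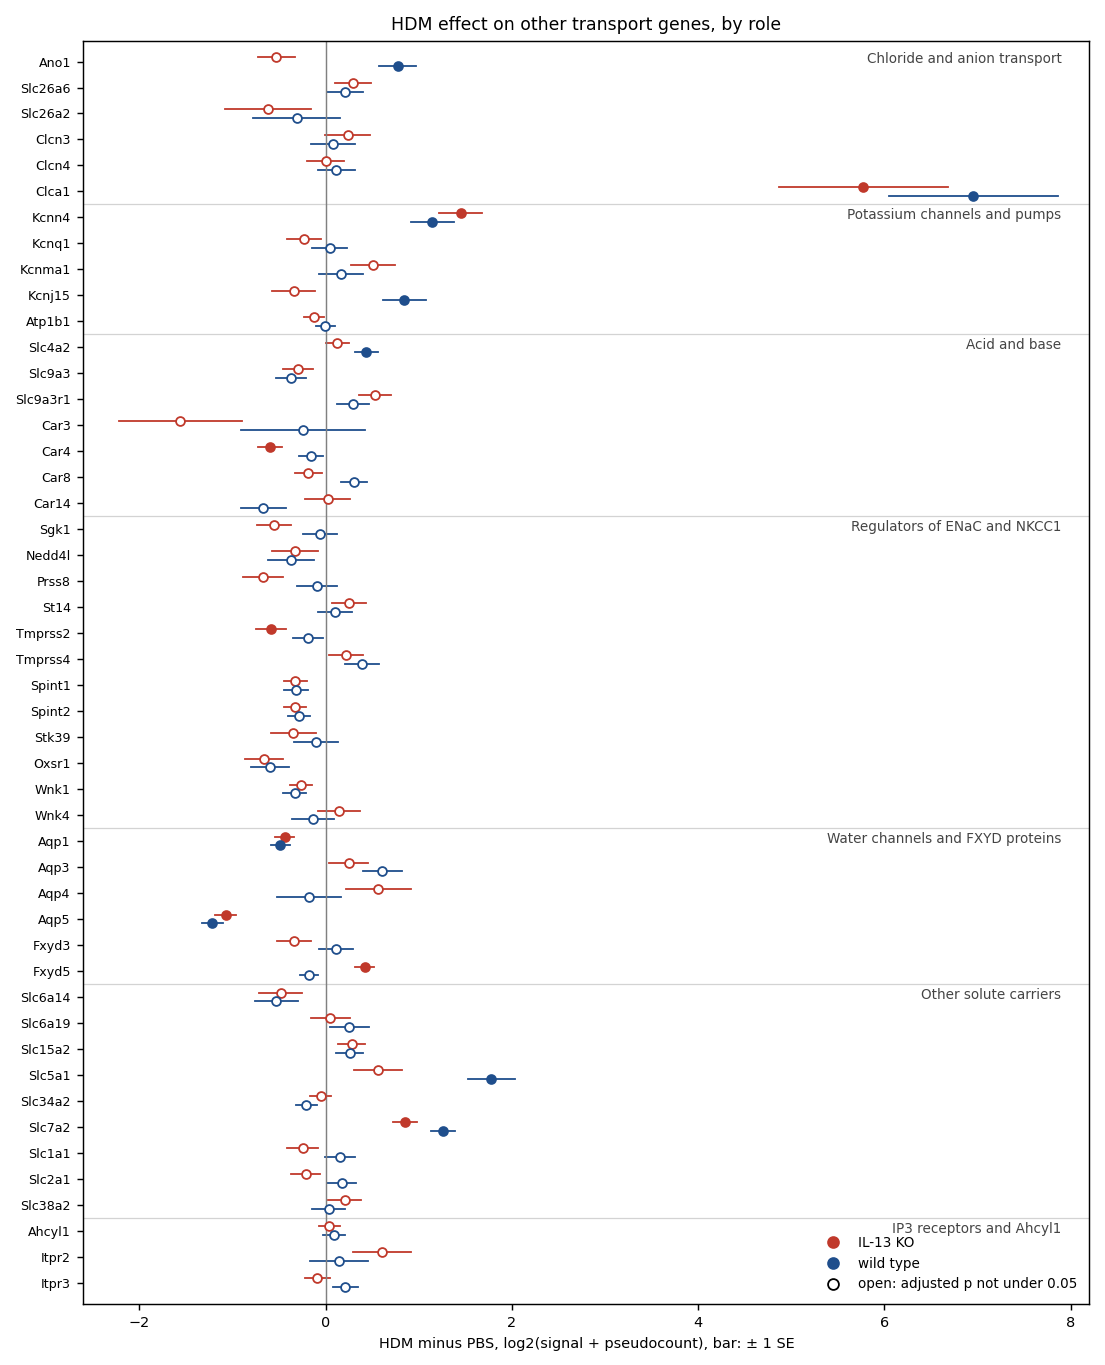
HDM effect (HDM minus PBS, log2 of signal plus pseudocount) on the 48 tested genes of the wider transport list, grouped by role, in IL-13 KO and wild-type lung, with bars of 1 SE and filled points for an adjusted p under 0.05. Clca1 lies at 5.77 in KO and 6.95 in wild type, Aqp5 at -1.08 and -1.22, and most other genes are open points near 0.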

How the data were processed

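Lung RNA of 12 samples (4 groups of 3) was measured on 24 arrays, read through the sample titles, which give group, replicate and array set. The authors deposited 1 linear intensity per probe set and array, and the arrays' trimmed mean shows that they had been scaled to a common mean. That scaling was kept. The software behind the values is not given in the sources used here, no detection calls were used, and array number limits the precision. Probe sets were named from the platform annotation. Of those outside the controls, 34945 had 1 gene, 932 several and 9160 none, and 34741 of the first matched RefSeq names.

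Intensities were converted to log2(value + pseudocount), where the pseudocount was the 10th percentile of each set (7 and 11). For the 100 probe sets shared by the sets, set A was used. A mean log2 value at or above the 30th percentile was required, and 31496 passed. A mean of linear signal was added as an alternative after seeing the data. One limma 3.58.1 model (R 4.3.3) with the 4 groups, 8 residual degrees of freedom and eBayes with an intensity trend gave 5 comparisons, each with Benjamini-Hochberg adjustment over all probe sets at 0.05, and was tested on simulated data. A gene is represented by its brightest tested probe set (14477 genes). The HDM effects and the comparisons of genotypes share arrays.

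All 10 members were named. Of the wider transport list up to 4 called genes per direction and comparison, by size of effect, were named, and for the 4 members chosen on the interaction, the 3 genes most like each. Markers of epithelium, goblet, ciliated, alveolar type 1 and 2, ionocyte, leukocyte, erythroid, smooth muscle, skeletal muscle and endothelial cells were summed per sample. The members and lists were chosen with earlier results of these data known. Alternatives were other pseudocounts and filters, quantile normalization, no trend, a replicate block, and samples left out.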

Additional observations from a re-analysis of the deposited data

Results flagged for a closer look

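The HDM effect differed between KO and wild-type lung for 4 of the 10 genes, on the log2 scale by -2.69 for Slc26a4, -2.08 for Slc6a20a, -1.37 for Car2 and -1.20 for Ahcyl2 (KO effect minus wild-type effect). These genes were chosen on this same difference, so its size is a description. Of 4 smooth muscle markers 3 were called lower for the same difference, where 0.152% of all genes were. Of the 5 goblet cell markers only 3 were tested, and 0 were called for it. The other 2, Agr2 and Spdef, lay under the filter. Their mean signal was 162 and 65.2 in wild-type HDM samples, against 17.1 and 12.9 in KO HDM samples. On set A the actin 5' to 3' ratio was lower in KO HDM than in KO PBS and wild-type HDM samples. The part of these in the difference was not tested.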

How the results depend on the processing

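The calls of Scnn1a, Scnn1b and Scnn1g in wild type and of Scnn1b and Scnn1g in KO held under every alternative run. The KO call of Scnn1a was lost with no filter on low signal (adjusted p = 0.0538), no intensity trend (0.109), the replicate block (0.0722), without the 3 samples rich in skeletal muscle transcripts (0.0582), without any KO sample (0.0618 to 0.134) and without wild-type HDM replicate 2 (0.0571) or 3 (0.0509). Its call in KO against wild type after HDM was also lost with no intensity trend (0.0655). No value that was called changed sign, and 14 values that were not called did, with sizes up to 0.16. Of the list genes, Clca1, Slc7a2 and Aqp5 kept every call, while Aqp1 (0.267) and Slc5a1 (0.0583) lost theirs in wild type without the muscle-rich samples. Of the single-gene values under alternatives, 1335 counted as unchanged (1321 of them with the same sign), and 95 lost and 2 gained a call. For tested genes, unchanged meant staying on the same side of the threshold. Slc26a4, Slc6a20a, Car2 and Ahcyl2 had no p-value, so for them it meant no move of over 1 SD and says nothing about a call. The 10 values that moved by over 1 SD were of Slc6a20a and Slc26a4, mostly with the pseudocount. Filtering on the mean linear signal, added after seeing the data, changed no member's or list gene's call. The 27 probe sets called for the difference of HDM effects became 16 with a pseudocount of 1, 17 with a filter at the 50th percentile, 17 with no intensity trend, 11 with the replicate block and 1 without the 3 muscle-rich samples. Without those 3 samples, the probe sets called were 979 for HDM in wild type, 30 for KO against wild type after HDM and 5 after PBS, the transport list genes 5 in wild type and 1 in KO against wild type after HDM, and the tested members 0 there. With no intensity trend, 5 transport list genes were called in KO and 1 tested member in KO against wild type after HDM. The stricter filter left 1 transport list gene there. Leaving out 1 sample gave 1549 to 2807 probe sets for HDM in KO, 1387 to 2311 for HDM in wild type, 6 to 19 for their difference, 59 to 153 for KO against wild type after HDM and 6 to 20 after PBS. It gave 2 to 4 tested members in KO, 3 in wild type and 0 to 2 in KO against wild type after HDM, and 5 to 9, 6 to 8 and 0 to 3 transport list genes. The lowest probe set counts came without KO HDM replicate 3, wild-type HDM replicate 3 or KO PBS replicate 3. Replicate numbers did not pair the samples: of 18 same-numbered pairs, 1 had a correlation of deviations over 0.1 (range -0.0885 to 0.171). With the replicate block, 2419 probe sets were called for HDM in KO and 2164 in wild type, and 8 and 6 transport list genes. Other causes of these shifts were not tested.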
